A study of Mus musculus with 4 samples.

Results

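Open chromatin was examined at the genes of 7 Toll-like receptors (Tlr1, Tlr2, Tlr3, Tlr4, Tlr5, Tlr6 and Tlr9), of the lipopolysaccharide-binding partners Cd14 and Ly96, and of the signalling adaptor Myd88, in large peritoneal macrophages (LPMs), the resident macrophages of the peritoneal cavity. ATAC-seq, which marks accessible DNA by the insertions of the Tn5 transposase, was run on 40000 sorted LPMs per library. The cells came from C57BL/6 mice at 9 weeks, either of genotype RXRabfl/fl (replicates 1 and 3) or of genotype LysMCre+RXRabfl/fl (replicates 1 and 2). All mice carry floxed alleles of Rxra and Rxrb, which encode retinoid X receptors, and in LysMCre+RXRabfl/fl mice the LysM promoter drives Cre in myeloid cells. RXRabfl/fl mice lack Cre, so an effect of Cre itself cannot be told apart from loss of the receptors. All 4 libraries carry the same library batch, and nothing in the labels says whether they came from separate mice, so any p value here measures the spread between libraries. Merging the peaks that overlapped by 1 bp or more gave 70744 regions, and 70 of these had the start site (TSS) of 1 of the 10 genes as the nearest TSS to their midpoint. No further region was added for overlapping a gene body. Tlr7, Tlr8 and Tlr13 lie on the X chromosome, whose reads the authors removed, and were not analysed here.

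Toll-like receptors are membrane proteins that recognise microbial molecules and start the inflammatory response of macrophages. TLR2 pairs with TLR1 or TLR6 to bind bacterial lipopeptides, TLR4 binds lipopolysaccharide with MD-2 (encoded by Ly96) and CD14, TLR5 binds flagellin, and TLR3 and TLR9 sense double-stranded RNA and CpG DNA in endosomes. All of them except TLR3 signal through MYD88, which leads to NF-kB activation, and retinoid X receptors are nuclear receptors that bind DNA with partners such as the retinoic acid, liver X and peroxisome proliferator-activated receptors.

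The libraries differed in the number of peaks. RXRabfl/fl replicates 1 and 3 held 38048 and 16097 peaks, and LysMCre+RXRabfl/fl replicates 1 and 2 held 65421 and 55581. The lowest local background of a library, which follows its number of tags, was 1.97 and 1.06 tags per 200 bp in RXRabfl/fl and 1.33 and 1.08 in LysMCre+RXRabfl/fl. RXRabfl/fl replicate 3 stands apart from the rest, since 98.2% of its regions were called in all 4 libraries against 23.7 to 41.3% in the others. The study's methods allowed samples that did not cluster with their group to be left out, so the spread between libraries may be understated. At the targeted genes, Rxra had 14 and 6 called regions in RXRabfl/fl and 25 and 22 in LysMCre+RXRabfl/fl, and Rxrb had 2 and 1 against 2 and 1. Removal of the floxed exons cannot be read from peak calls. Of 6 LPM marker genes (Gata6, Adgre1, Timd4, Icam2, Itgam and Csf1r), 4 had a promoter region called in all 4 libraries, Itgam and Csf1r being the exceptions. Across their 57 regions, 40 and 20 (70.2 and 35.1%) were called in RXRabfl/fl and 46 and 49 (80.7 and 86.0%) in LysMCre+RXRabfl/fl. These shares were above those of all regions, given below, except in LysMCre+RXRabfl/fl replicate 1. Markers of other peritoneal cells had fewer regions, which were also called more often in LysMCre+RXRabfl/fl, as were regions over the genome (52.0 and 21.9% of all regions called in RXRabfl/fl, and 90.7 and 77.2% in LysMCre+RXRabfl/fl), with equal numbers in 1 library of each genotype at the granulocyte and mast cell genes. Of 31 regions at the small peritoneal macrophage and monocyte genes, 7 to 18 (22.6 to 58.1%) were called in RXRabfl/fl and 23 to 26 (74.2 to 83.9%) in LysMCre+RXRabfl/fl, close to those shares. The T cell genes had 1 to 4 against 5 to 9 of 9 regions and none at Cd3g. The granulocyte and mast cell genes had 0 to 2 against 2 to 5 of 5 regions and none at Cpa3. The mesothelial genes had 1 against 6 of 6 regions, with none at Wt1. The part of these cells in the results below was not tested, and in bulk libraries fewer cells of a type and less accessibility per cell cannot be told apart.

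The sequences of 6 regions are shown because the values below turn on them: the strongest regions of Tlr5, Tlr2 and Tlr6, the Tlr5 regions with the widest gap between genotypes, and the strongest Tlr2 region called only in LysMCre+RXRabfl/fl. They were chosen after their values had been seen. Each is a window of 100 bp on either side of the summit on mm10, read 5′ to 3′, with matches to the motifs searched in capitals. The consensus letters searched on both strands were GAGGAAGT for PU.1, TTGCNNAA for C/EBP, TGANTCA for AP-1, AGATAA for GATA, CCACACCC for KLF, TGACAG for MEIS, TGACGTCA for ATF and GAAANNGAAA for ISRE, and the degenerate NF-kB, DR1 and DR5 patterns were searched as well.
Tlr5 31.7 kb upstream (chr1:182922962-182923162, plus strand): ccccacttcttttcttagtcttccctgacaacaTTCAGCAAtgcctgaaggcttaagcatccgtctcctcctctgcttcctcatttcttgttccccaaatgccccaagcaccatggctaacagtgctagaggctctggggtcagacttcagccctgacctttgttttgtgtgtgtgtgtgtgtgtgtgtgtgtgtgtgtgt
Tlr5 19.2 kb upstream (chr1:182935513-182935713, plus strand): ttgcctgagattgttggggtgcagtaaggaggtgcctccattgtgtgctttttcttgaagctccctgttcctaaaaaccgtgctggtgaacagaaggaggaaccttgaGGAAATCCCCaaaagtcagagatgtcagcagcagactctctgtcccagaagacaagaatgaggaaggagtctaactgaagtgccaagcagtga
Tlr5 28.5 kb downstream (chr1:182983096-182983296, plus strand): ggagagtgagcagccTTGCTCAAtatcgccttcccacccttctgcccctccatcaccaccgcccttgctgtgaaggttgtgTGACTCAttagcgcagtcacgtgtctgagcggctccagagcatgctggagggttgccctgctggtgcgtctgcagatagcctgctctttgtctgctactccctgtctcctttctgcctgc
Tlr2 43.6 kb upstream (chr3:83885115-83885315, plus strand): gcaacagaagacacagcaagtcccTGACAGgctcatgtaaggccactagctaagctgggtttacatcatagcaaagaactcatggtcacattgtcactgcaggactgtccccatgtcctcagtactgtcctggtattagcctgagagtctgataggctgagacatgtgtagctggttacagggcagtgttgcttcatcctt
Tlr2 97.5 kb upstream (chr3:83938959-83939159, plus strand): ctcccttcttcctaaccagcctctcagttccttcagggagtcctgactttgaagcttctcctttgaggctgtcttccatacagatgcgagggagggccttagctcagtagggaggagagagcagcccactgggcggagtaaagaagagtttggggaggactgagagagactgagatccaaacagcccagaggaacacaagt
Tlr6 1.14 kb upstream (chr5:64960938-64961138, plus strand): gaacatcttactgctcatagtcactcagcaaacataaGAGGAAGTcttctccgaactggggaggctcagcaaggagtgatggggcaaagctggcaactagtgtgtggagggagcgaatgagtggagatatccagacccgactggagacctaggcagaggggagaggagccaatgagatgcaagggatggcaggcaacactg
The Tlr5 window 19.2 kb upstream holds an NF-kB match, the one 31.7 kb upstream a C/EBP match, and the one 28.5 kb downstream an AP-1 and a C/EBP match. The Tlr2 window 43.6 kb upstream holds a MEIS match and the Tlr6 window a PU.1 match.

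Promoters of 7 of the 10 genes were found in the RefSeq table for GRCm38.p6, as 9 sequences from 250 bases before to 50 after a start. The 3 that follow belong to genes whose promoter region separated the libraries or was weakly called, again with motif matches in capitals.
Tlr2 promoter (chr3:83841559-83841858, minus strand): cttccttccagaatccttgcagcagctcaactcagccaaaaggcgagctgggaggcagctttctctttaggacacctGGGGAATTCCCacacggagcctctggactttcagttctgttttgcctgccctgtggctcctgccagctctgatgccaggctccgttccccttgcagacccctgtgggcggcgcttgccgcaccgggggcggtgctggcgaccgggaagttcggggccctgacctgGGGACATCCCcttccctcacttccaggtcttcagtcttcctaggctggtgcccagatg
Tlr9 promoter (chr9:106222348-106222647, plus strand): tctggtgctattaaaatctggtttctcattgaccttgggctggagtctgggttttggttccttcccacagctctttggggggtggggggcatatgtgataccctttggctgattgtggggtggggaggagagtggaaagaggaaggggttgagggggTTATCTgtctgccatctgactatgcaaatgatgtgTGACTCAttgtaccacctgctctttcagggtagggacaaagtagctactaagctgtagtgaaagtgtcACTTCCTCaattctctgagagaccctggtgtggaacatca
Myd88 promoter (chr9:119339969-119340268, minus strand): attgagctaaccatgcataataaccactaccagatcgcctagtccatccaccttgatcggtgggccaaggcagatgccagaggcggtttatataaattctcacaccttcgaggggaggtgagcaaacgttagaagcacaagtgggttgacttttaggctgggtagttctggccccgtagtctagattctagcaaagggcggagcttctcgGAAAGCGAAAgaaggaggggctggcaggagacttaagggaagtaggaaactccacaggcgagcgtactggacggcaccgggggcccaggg
The Tlr2 promoter holds NF-kB matches in 2 separate stretches, the Tlr9 promoter AP-1, GATA and PU.1 matches, and the Myd88 promoter an ISRE match. NF-kB matches were present in 4.51% of all 32851 promoters of this length, ISRE in 3.44%, AP-1 in 7.81%, GATA in 11.2% and PU.1 in 3.20%. Within the summit windows of the 70 regions, AP-1 matches were found in 13 (18.6%, against 12.7% of all regions), C/EBP in 9 (12.9 against 11.1%), PU.1 in 7 (10.0 against 9.30%), MEIS in 7 (10.0 against 16.6%), GATA in 6 (8.57 against 6.44%) and NF-kB in 4 (5.71 against 3.38%). KLF, ATF and ISRE were each matched in 1 region. DR1 and DR5, the repeats that retinoid X receptor pairs can bind, were matched in 0 of the 70 windows and in 0.164 and 0.151% of all windows, which says only that these letters are not there. A match is a description of the sequence and not a bound site.

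Peaks were called at all 10 genes. Of the 70 regions, 38 and 15 were called in RXRabfl/fl replicates 1 and 3, and 66 and 52 in LysMCre+RXRabfl/fl replicates 1 and 2. Both LysMCre+RXRabfl/fl libraries thus held more of these regions than either RXRabfl/fl library, as they did over the genome. The shares of the 70 were 54.3, 21.4, 94.3 and 74.3% in the same order, against 52.0, 21.9, 90.7 and 77.2% of all regions, so that the genes stand near the background. The exact two-sided permutation test gave p = 0.33, which is the smallest that 2 against 2 libraries allow. When the same number of peaks (16097) was taken from each library, 24 regions were left. Of these, 15 and 15 were called in RXRabfl/fl and 14 and 16 in LysMCre+RXRabfl/fl. Equal totals make near-equal counts likely for genes near the background, so no conclusion is drawn from the loss of the order.

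Of the 70 regions, 15 (21.4%) were called in all 4 libraries, against 21.5% of all regions. A further 20 (28.6%, against 25.5%) were missed only in RXRabfl/fl replicate 3, and 19 (27.1%, against 26.9%) were called in a single library, which was a LysMCre+RXRabfl/fl library in each case. Both LysMCre+RXRabfl/fl libraries and neither RXRabfl/fl library called 13 of the 70 (18.6%). The share over all regions was 22.8%, so that the genes stand near the background. The reverse pattern was found in 0 of the 70, against 0.0452% of all regions. The count of 13 rose to 33 (47.1%, against 49.2% of all regions) without RXRabfl/fl replicate 1. It rose to 29 (43.3%, against 44.0%) without LysMCre+RXRabfl/fl replicate 2 and to 16 (29.6%, against 36.1%) without LysMCre+RXRabfl/fl replicate 1. The rise over the genome was thus alike, so these counts too stand near or below the background. At an equal number of peaks, 2 of 24 regions (8.33%, against 7.82%) were called only in LysMCre+RXRabfl/fl and 3 of 24 (12.5%, against 7.22%) only in RXRabfl/fl.

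**Figure D1:**
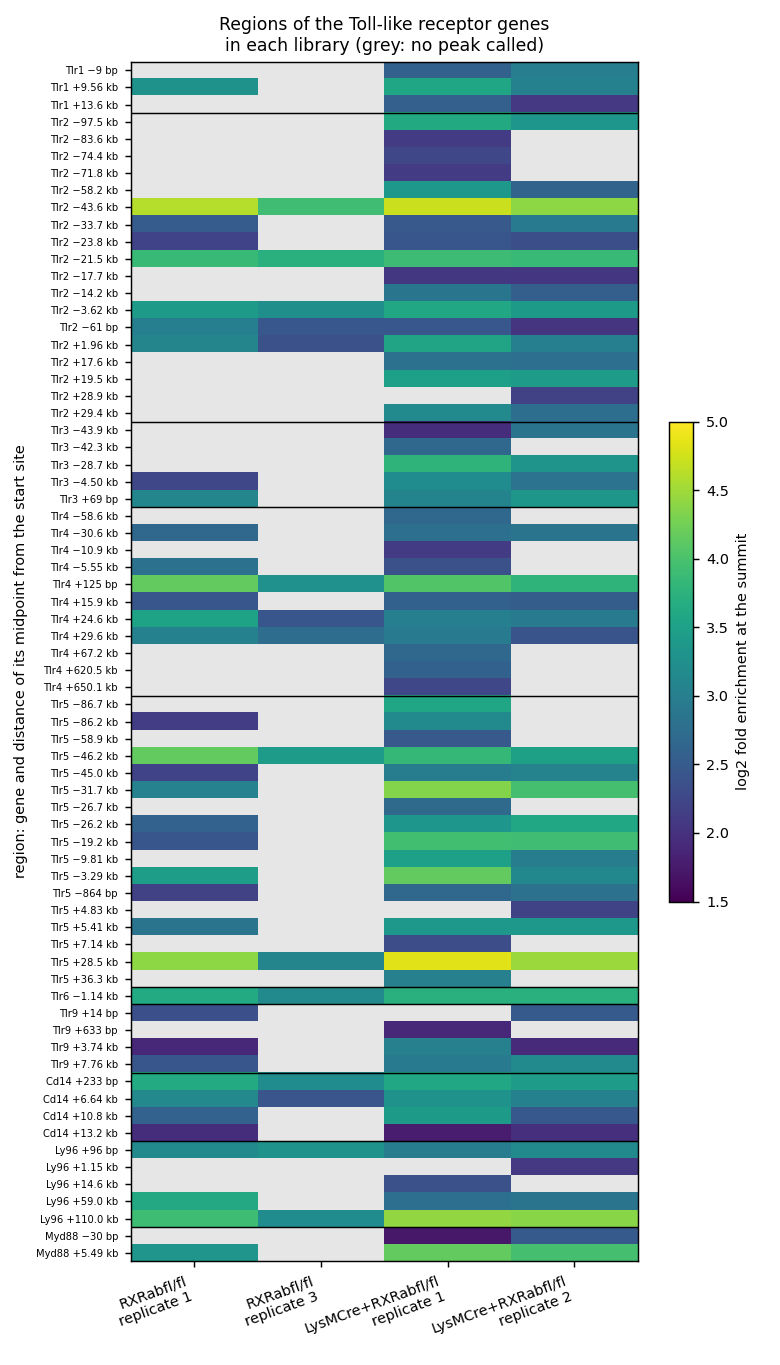
Log2 fold enrichment at the summit (colour) of the 70 regions (rows, labelled by gene and distance of the midpoint from the TSS, + downstream and − upstream) in the 4 libraries (columns), with grey where no peak was called. The column of RXRabfl/fl replicate 3 has colour in 15 rows and that of LysMCre+RXRabfl/fl replicate 1 in 66.

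The 13 regions called only in LysMCre+RXRabfl/fl lay at 5 genes. Tlr2 had 7 of them among its 18 regions, Tlr1 2 of 3, Tlr3 2 of 5, Tlr5 1 of 17 and Myd88 1 of 2. Tlr4, Tlr6, Tlr9, Cd14 and Ly96 had none, among 11, 1, 4, 4 and 5 regions. The share over all regions was 22.8%, and most genes have too few regions for a contrast between them. The strength of such calls was read from the pileup, the number of tags at the summit solved from the fold enrichment and p value. The lower pileup of the 2 LysMCre+RXRabfl/fl libraries ranged from 8 tags, at the Tlr3 region 43.9 kb upstream, to 51 tags, at the Myd88 promoter.

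Among the 15 regions called in all 4 libraries, the fold enrichment, which is the ratio of tags at the summit to the local background, was compared on a log2 scale after centring each library on its median. None passed limma's threshold (a log2 fold change past 1 with a Benjamini-Hochberg adjusted p under 0.05), in either direction. Over all 15199 such regions, 6 (0.0395%) were called higher and 7 (0.0461%) lower in LysMCre+RXRabfl/fl, or 9 and 2 with quantile normalisation. At an unadjusted p under 0.05, 5 of the 15 regions passed limma, against 22.0% of all regions. The median log2 fold change was −0.19 over the 15 regions and −0.09 over all, with 11 of 15 and 59.0% below 0. After centring, both RXRabfl/fl libraries lay above both LysMCre+RXRabfl/fl libraries in 5 of the 15. These were the Tlr2 and Tlr4 promoters, Tlr4 24.6 and 29.6 kb downstream and Tlr5 46.2 kb upstream. The reverse held in 2, Ly96 110.0 kb and Tlr5 28.5 kb downstream. Over all 15199 regions the counts were 4993 and 3395. On the pileup, limma called 1 of the 15 lower and 0 higher, where 4.98% of all regions were called lower and 2.49% higher. The intervals of the 15 changes in fold enrichment reach from −1.33 to 1.01, so a change of 2-fold was within the interval of some of them.

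**Figure D2:**
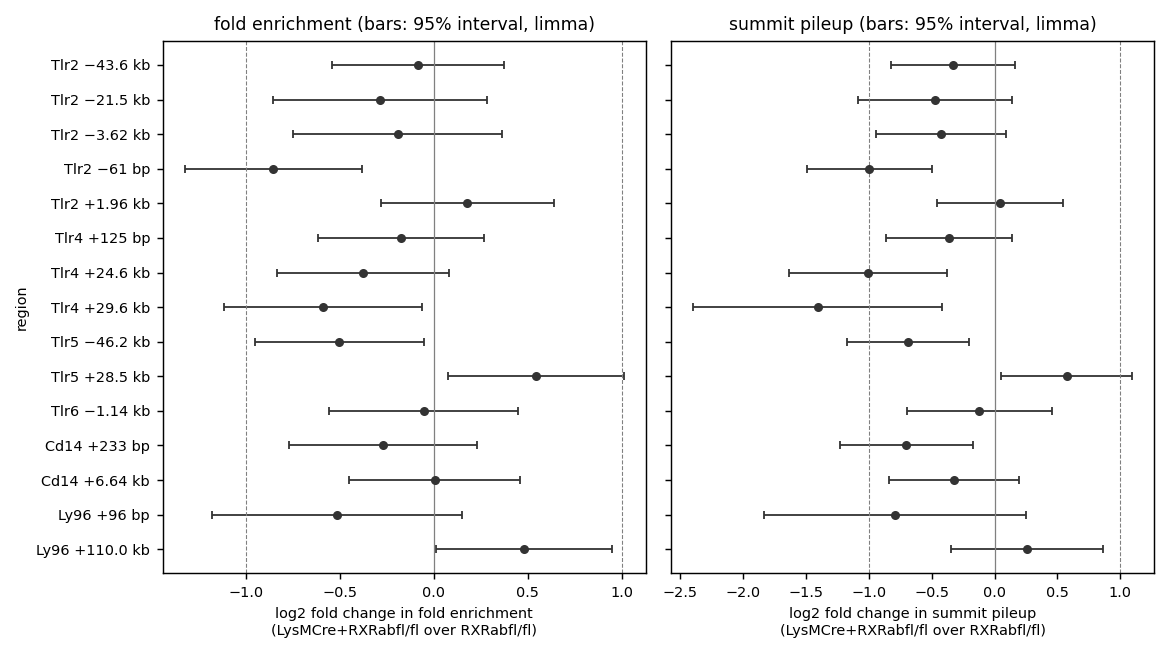
Log2 fold change (x axis, LysMCre+RXRabfl/fl over RXRabfl/fl) of the 15 regions called in all 4 libraries (y axis), in fold enrichment (left) and in summit pileup (right), with 95% intervals from limma and dashed lines at −1 and 1. In fold enrichment the points lie between −0.85 and 0.54, the lowest being the Tlr2 promoter and the highest the Tlr5 region 28.5 kb downstream.

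Tlr2, the lipopeptide receptor, on chromosome 3 (83836272 to 83841608, minus strand, mm10), had the most regions, with 18. Of these, 7 and 5 were called in RXRabfl/fl and 17 and 15 in LysMCre+RXRabfl/fl, and the 5 of RXRabfl/fl replicate 3 were the 5 called in all 4 libraries. The strongest, intergenic and 43.6 kb upstream (window above), had a fold enrichment of 24.5 and 15.3 in RXRabfl/fl and of 26.2 and 21.1 in LysMCre+RXRabfl/fl. The genotypes overlapped there, and the log2 fold change was −0.08 (SE 0.21, adjusted p = 0.844 from limma). Before centring, the region 21.5 kb upstream had 14.6 and 13.2 against 15.0 and 14.5 (log2 fold change −0.29, SE 0.26). That 3.62 kb upstream had 10.6 and 9.50 against 12.1 and 10.6 (log2 fold change −0.19, SE 0.26). The library medians over regions called in all 4 libraries were 14.5 and 7.52 in RXRabfl/fl and 15.1 and 12.0 in LysMCre+RXRabfl/fl. Centred on these, RXRabfl/fl replicate 3 was the highest library at both regions (0.82 and 0.34), and the genotypes overlapped. An intronic region 1.96 kb downstream of the TSS had 8.50 and 5.17 against 11.6 and 8.06 (log2 fold change 0.18, SE 0.21), and the genotypes overlapped.

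The Tlr2 promoter region has its midpoint 61 bp upstream of the TSS. Its fold enrichment was 8.05 and 5.46 in RXRabfl/fl and 5.45 and 4.12 in LysMCre+RXRabfl/fl. Both RXRabfl/fl libraries lay above both LysMCre+RXRabfl/fl libraries, by a margin of 5.46 against 5.45 before centring. The log2 fold change was −0.85 (SE 0.22, 95% interval −1.33 to −0.38), the lowest of the 15 regions, with an adjusted p of 0.0754 from limma. The pileup was 132 and 24 tags against 66 and 40, where the median over regions called in all 4 libraries was 97 and 20 against 99 and 65. On the pileup the log2 fold change was −0.997 (SE 0.22, adjusted p = 0.0291 from limma), just short of the threshold of 1. Without RXRabfl/fl replicate 1 it was −1.05 in fold enrichment and was called (adjusted p = 0.00157 from limma). That fit sets LysMCre+RXRabfl/fl against replicate 3 alone, which stands apart and is assumed to vary like the other group, and it called 3.55% of 15224 regions lower. Over 9 alternatives the change stayed between −1.05 and −0.67 with adjusted p from 0.00157 to 0.445.

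The 7 Tlr2 regions called only in LysMCre+RXRabfl/fl had fold enrichments of 4.16 to 12.4. The highest lay 97.5 kb upstream in an intron of Tmem131l (window above), at 12.4 and 10.1, with pileups of 77 and 40 tags. Its lower pileup was at the 95.5th percentile of the 16133 regions of this pattern. At 19.5 kb downstream the fold enrichment was 11.1 and 10.7, with pileups of 33 and 28 tags. The other 5 lay 14.2, 17.7 and 58.2 kb upstream and 17.6 and 29.4 kb downstream, with 14 to 33 tags at the summit.

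**Figure D3:**
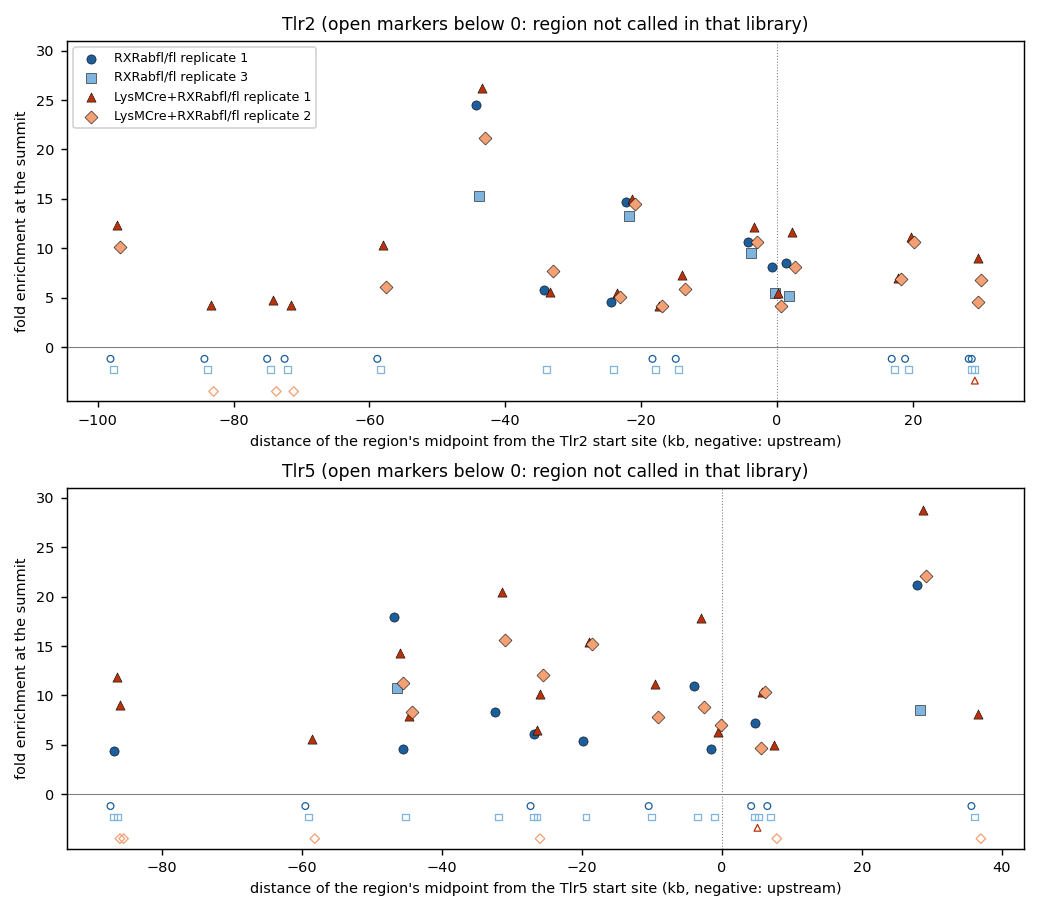
Fold enrichment at the summit (y axis) of each region of Tlr2 (top) and Tlr5 (bottom) against the distance of its midpoint from the TSS (x axis, kb, markers of a region set side by side), by library, with open markers below 0 for libraries without a call. At the Tlr5 regions 31.7 and 19.2 kb upstream the markers of both LysMCre+RXRabfl/fl libraries lie above 15 and that of RXRabfl/fl replicate 1 below 9.

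Tlr1 and Tlr6, the partners of TLR2, are neighbours on chromosome 5 (64924680 to 64933558 and 64953095 to 64960048, minus strand) and had few regions, with 3 and 1. Their gene bodies share 454 words of 50 bases (5.14% of those of Tlr1 and 6.57% of those of Tlr6), and the authors removed reads of low mapping quality, so peaks within these stretches can be lost. The single Tlr6 region, 1.14 kb upstream (window above), was called in all 4 libraries, with 12.5 and 8.95 in RXRabfl/fl and 13.2 and 13.2 in LysMCre+RXRabfl/fl. Although both LysMCre+RXRabfl/fl libraries were higher before centring, the genotypes overlapped after it, and the log2 fold change was −0.05 (SE 0.23, adjusted p = 0.915 from limma). At Tlr1, the promoter region was called only in LysMCre+RXRabfl/fl, at 6.02 and 8.02, with pileups of 13 and 16 tags. A region 13.6 kb downstream had 5.97 and 4.23 in the same libraries. The strongest Tlr1 region, 9.56 kb downstream, was missed only in RXRabfl/fl replicate 3 and had 9.77 in RXRabfl/fl replicate 1 and 11.9 and 8.22 in LysMCre+RXRabfl/fl, so that the genotypes overlapped.

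Of the lipopolysaccharide receptor genes, Cd14 and Ly96 had fewer regions (4 and 5) than Tlr4, and no contrast is drawn from such small counts. Cd14 had 4 and 2 called regions in RXRabfl/fl against 4 and 4 in LysMCre+RXRabfl/fl, and Ly96 had 3 and 2 against 4 and 4. Of the 11 regions of Tlr4, on chromosome 4 (66827551 to 66846581, plus strand), RXRabfl/fl libraries called 6 and 3 and LysMCre+RXRabfl/fl libraries 11 and 5. Its strongest region covers the promoter and TSS and had 17.8 and 9.69 in RXRabfl/fl and 16.5 and 13.7 in LysMCre+RXRabfl/fl. These values overlapped before centring. After it, both RXRabfl/fl libraries lay above both LysMCre+RXRabfl/fl libraries (0.29 and 0.365 against 0.13 and 0.18 on the log2 scale). The log2 fold change was −0.17 (SE 0.21, adjusted p = 0.636 from limma). The region 24.6 kb downstream had a pileup of 40 and 11 tags in RXRabfl/fl and of 19 and 19 in LysMCre+RXRabfl/fl. Its log2 fold change was −1.01 on the pileup (SE 0.28, adjusted p = 0.0479 from limma), the 1 call among the members on that scale, whereas that in fold enrichment was −0.38 (adjusted p = 0.310), and the adjusted p ranged from 0.0479 to 0.873 over the alternatives. The region 29.6 kb downstream had 8.22 and 6.72 against 7.69 and 5.29 in fold enrichment. Its log2 fold change was −0.59 (SE 0.24, adjusted p = 0.187 from limma), and it was −0.92 without RXRabfl/fl replicate 1 (adjusted p = 0.00358 from limma), short of the threshold of 1. Measured by pileup it was −1.41 (SE 0.44, adjusted p = 0.0644 from limma). Of the other 8 regions, 5 were called only in LysMCre+RXRabfl/fl replicate 1, with pileups of 9 to 14 tags, and 2 of these lay 620.5 and 650.1 kb downstream, where Tlr4 is the nearest gene in the annotation used.

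Cd14 on chromosome 18, which encodes the co-receptor that hands lipopolysaccharide to TLR4, had 4 regions, and both LysMCre+RXRabfl/fl libraries and RXRabfl/fl replicate 1 called all of them. The strongest, at the promoter and 5′ end of the gene, had 12.4 and 9.21 in RXRabfl/fl and 12.1 and 10.8 in LysMCre+RXRabfl/fl. The genotypes overlapped, with a log2 fold change of −0.27 (SE 0.23, adjusted p = 0.505 from limma). A region 6.64 kb downstream had 8.83 and 5.38 against 9.72 and 8.21, with a log2 fold change of 0.01 (SE 0.21, adjusted p = 0.991 from limma).

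Ly96, on chromosome 1 (16688456 to 16709605, plus strand), had 5 regions. Its promoter region was the only 1 of the 15 in which RXRabfl/fl replicate 3 had the highest fold enrichment before centring. It had 8.95 and 9.72 in RXRabfl/fl and 7.94 and 8.95 in LysMCre+RXRabfl/fl. The log2 fold change was −0.51 (SE 0.31, adjusted p = 0.338 from limma). It was −1.05 without RXRabfl/fl replicate 1, where replicate 3 alone stood for RXRabfl/fl and it was called with 3.55% of all regions (adjusted p = 0.00271 from limma), and −0.26 without LysMCre+RXRabfl/fl replicate 1 (adjusted p = 0.865 from limma). The strongest Ly96 region, 110.0 kb downstream, had 15.1 and 9.22 in RXRabfl/fl and 21.7 and 20.8 in LysMCre+RXRabfl/fl. Both LysMCre+RXRabfl/fl libraries were above both RXRabfl/fl libraries, before and after centring. Here the log2 fold change was 0.48 (SE 0.22, adjusted p = 0.215 from limma). It fell short of the threshold, and by pileup it was 0.26 (SE 0.27, adjusted p = 0.532 from limma). Without RXRabfl/fl replicate 3 the change in fold enrichment was 0.27, with the libraries centred anew on a larger set of regions. A region 59.0 kb downstream, chosen here after its values were seen, had 12.2 in RXRabfl/fl replicate 1 and 6.88 and 7.21 in LysMCre+RXRabfl/fl, and was the only 1 of the 20 regions missed in RXRabfl/fl replicate 3 in which both LysMCre+RXRabfl/fl libraries were below RXRabfl/fl replicate 1.

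Tlr5, the flagellin receptor gene, on chromosome 1 (182954788 to 182976044, plus strand), had 17 regions. RXRabfl/fl libraries called 10 and 2 of them and LysMCre+RXRabfl/fl libraries 16 and 11. The strongest, intergenic and 28.5 kb downstream of the TSS (window above), had 21.1 and 8.52 in RXRabfl/fl and 28.8 and 22.1 in LysMCre+RXRabfl/fl. Both LysMCre+RXRabfl/fl libraries were above both RXRabfl/fl libraries. The log2 fold change was 0.54 (SE 0.22, 95% interval 0.08 to 1.01, adjusted p = 0.173 from limma), the highest of the 15 regions. Without RXRabfl/fl replicate 3 it was 0.03, but that fit also centred the libraries anew, on 33263 regions. Centred on the regions called in all 4 libraries, the log2 values were 0.54 and 0.18 in RXRabfl/fl and 0.93 and 0.88 in LysMCre+RXRabfl/fl. The part of replicate 3 in the change was thus not separated from that of the centring. The region 46.2 kb upstream went in the other direction, with 17.9 and 10.8 against 14.3 and 11.3. Its log2 fold change was −0.50 (SE 0.21, adjusted p = 0.187 from limma), and it did not pass the threshold.

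Over all regions, 25.5% were missed only in RXRabfl/fl replicate 3, and so were 2 of 4 regions each at Cd14 and Tlr9. Of the 17 Tlr5 regions, 7 had this pattern, the largest count of the 10 genes but not the largest share. In 6 of these 7, both LysMCre+RXRabfl/fl libraries had a higher fold enrichment than RXRabfl/fl replicate 1, the exception being the region 3.29 kb upstream (11.0 against 17.8 and 8.78). Over the members this was so in 13 of 20 such regions, and over all 18064 such regions in 64.0%, so that the count over the members is near the background. The median fold enrichment of such regions over the genome was 6.40 in RXRabfl/fl replicate 1 and 9.97 and 7.89 in LysMCre+RXRabfl/fl.

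Of these Tlr5 regions, 2 had the widest gap, and they are described here because of it, without a test of that choice. The region 19.2 kb upstream had 5.39 in RXRabfl/fl replicate 1, no call in replicate 3, and 15.4 and 15.2 in LysMCre+RXRabfl/fl, with pileups of 15 against 43 and 42 tags. The region 31.7 kb upstream had 8.28, no call, and 20.5 and 15.6, with pileups of 26 against 74 and 42 tags. At both, the value in LysMCre+RXRabfl/fl was above that of the single RXRabfl/fl library with a call, and the missing library entered the fit as a missing value, so the spread of RXRabfl/fl was not measured there. With each library centred on its median over its own regions, limma gave a log2 fold change of 1.28 (SE 0.36, adjusted p = 0.115) at 19.2 kb and of 0.88 (SE 0.36, adjusted p = 0.256) at 31.7 kb. Neither was called, and 0.0689% of 33385 regions were. With each library centred on the regions called in all 4, the changes were 1.61 (SE 0.29, adjusted p = 0.00820 from limma) and 1.22 (SE 0.28, adjusted p = 0.0173 from limma), and both were called. This second centring, added after seeing the data, moved the median of all regions from 0.03 to 0.20 and called 8.14% of them higher in LysMCre+RXRabfl/fl, or 2719 higher and 124 lower against 15 higher and 8 lower with the first. Relative to that median the changes were smaller, and the calls depend on the centring. With RXRabfl/fl replicate 3 left out altogether, the region at 19.2 kb was called (log2 fold change 1.28, SE 0.26, adjusted p = 0.0329 from limma) and that at 31.7 kb was not (0.88, adjusted p = 0.0620 from limma), with a lone RXRabfl/fl library assumed to vary like the others and 2.21% of 33263 regions called higher (735, with 402 lower).

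The Tlr5 promoter region, 864 bp upstream of the TSS, was weak, with 4.52 in RXRabfl/fl replicate 1, no call in replicate 3, and 6.34 and 6.98 in LysMCre+RXRabfl/fl. The 1 Tlr5 region called only in both LysMCre+RXRabfl/fl libraries lay 9.81 kb upstream, at 11.2 and 7.80. Another 6 were called in a single LysMCre+RXRabfl/fl library, 5 of them in replicate 1, with pileups of 12 to 27 tags. Regions within the neighbouring gene Susd4, 58.9 to 86.7 kb upstream, belong to this group or were called in RXRabfl/fl replicate 1 and LysMCre+RXRabfl/fl replicate 1 only.

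TLR3 and TLR9 are the endosomal receptors. Tlr3, on chromosome 8 (45395665 to 45410619, minus strand), had 5 regions. RXRabfl/fl libraries called 2 and 0 of them and LysMCre+RXRabfl/fl libraries 5 and 4. Its promoter region had 8.60 in RXRabfl/fl replicate 1, no call in replicate 3, and 8.43 and 10.2 in LysMCre+RXRabfl/fl, which overlap. Its strongest region, 28.7 kb upstream, was called only in LysMCre+RXRabfl/fl, at 13.8 and 9.91, with pileups of 31 and 20 tags. The other region of that pattern, 43.9 kb upstream, had 3.87 and 7.21.

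Tlr9, the CpG DNA receptor gene, on chromosome 9 (106222598 to 106226876, plus strand), had 4 regions and was called 3 and 0 times in RXRabfl/fl and 3 and 3 times in LysMCre+RXRabfl/fl. The promoter region was called in 1 library of each genotype, at 5.10 in RXRabfl/fl replicate 1 and 5.65 in LysMCre+RXRabfl/fl replicate 2, with 20 tags in each. The strongest region, 7.76 kb downstream, had 5.43 in RXRabfl/fl replicate 1 and 7.71 and 8.95 in LysMCre+RXRabfl/fl. No Tlr9 region was called in RXRabfl/fl replicate 3.

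Myd88, on chromosome 9 (119335934 to 119340018, minus strand), encodes the shared adaptor and had 2 regions. The promoter region, with its midpoint 30 bp upstream of the TSS, was called only in LysMCre+RXRabfl/fl, at a low fold enrichment of 3.30 and 5.63. Its pileup was 51 and 57 tags, and the lower of these was at the 98.0th percentile of the 16133 regions of this pattern, so the local background was high there. The stronger region, 5.49 kb downstream, had 10.0 in RXRabfl/fl replicate 1, no call in replicate 3, and 17.9 and 15.6 in LysMCre+RXRabfl/fl. Its log2 fold change with a missing value for replicate 3 was 0.51 (SE 0.36, adjusted p = 0.545 from limma).

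The levels of the 10 promoters were ordered by fold enrichment, only where they were called in all 4 libraries, at Tlr4, Tlr6, Cd14, Ly96 and Tlr2. At Tlr6 this was the intergenic region 1.14 kb upstream, which overlaps the promoter window but not the gene body, so it does not cover the start site. In RXRabfl/fl replicate 1 Tlr4 was the highest (17.8) and Tlr2 the lowest (8.05), and in both LysMCre+RXRabfl/fl libraries Tlr4 was again the highest (16.5 and 13.7) and Tlr2 the lowest (5.45 and 4.12). In RXRabfl/fl replicate 3 Ly96 (9.72) and Tlr4 (9.69) were nearly level at the top, and Tlr2 was the lowest (5.46). The ranges of Tlr6 (8.95 to 13.2) and Cd14 (9.21 to 12.4) overlapped over the libraries, as did those of Cd14 and Ly96 (7.94 to 9.72). By pileup the order was another one. Ly96 was then the lowest in every library, with 33 and 20 tags in RXRabfl/fl and 26 and 28 in LysMCre+RXRabfl/fl. Cd14 was the highest in RXRabfl/fl (184 and 43 tags) and Tlr6 in LysMCre+RXRabfl/fl (117 and 113 tags).

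The rest of the pathway was examined through 35 further genes for ligand capture, the remaining autosomal receptors, TIR-domain adaptors, kinases and ligases, regulators and effectors. Irak1, Ikbkg and Tab3 lie on the X chromosome and were not analysed here. A region was found at 34 of the 35 genes, the exception being Tlr12, and the 268 regions included 62 called in all 4 libraries. Of these 62, limma called 0 higher and 0 lower in fold enrichment, and 9 (14.5%, against 22.0% of all regions) had an unadjusted p under 0.05. On the pileup, 1 was called higher, nearest to Ikbke, a kinase upstream of interferon regulatory factors, and 4 lower, at Irak3, Tab2 and Tnfaip3. Over all regions these shares were 2.49 and 4.98%, so that the counts stand near the background. The median log2 fold change over the 62 was −0.11, against −0.09 over all regions. Both LysMCre+RXRabfl/fl libraries and neither RXRabfl/fl library called 57 of the 268 regions (21.3%, against 22.8% of all regions). The reverse pattern was found in 0 of the 268, against 0.0452% of all regions, so that these counts also stand near the background.

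Promoter regions were called in all 4 libraries at 26 of these genes, and 19 of the 26 log2 fold changes were below 0, with a median of −0.21. Over all regions tested, promoters or not, 59.0% were below 0 and the median was −0.09. No share over all promoters was taken, so the 19 are not read as a result about these genes. Tirap, which encodes the adaptor that brings MYD88 to TLR2 and TLR4, had 15.2 and 8.47 in RXRabfl/fl and 21.6 and 20.3 in LysMCre+RXRabfl/fl. Its log2 fold change was 0.52 (SE 0.21, adjusted p = 0.180 from limma), the highest of the 26. Traf6, a ubiquitin ligase downstream of MYD88, followed with 0.36 (SE 0.21, adjusted p = 0.313 from limma) and Ticam2, the TRIF-related adaptor of TLR4, with 0.34 (SE 0.21, adjusted p = 0.347 from limma). None of the 3 passed the threshold.

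At the other end, Irak3, which encodes a kinase-like inhibitor of the pathway, had 16.5 and 9.06 in RXRabfl/fl and 12.3 and 9.09 in LysMCre+RXRabfl/fl. Its log2 fold change was −0.58 (SE 0.21, adjusted p = 0.138 from limma). By pileup it was −1.25 and was called (adjusted p = 0.0233 from limma). Tbk1, a kinase of the interferon branch, was at −0.54 (SE 0.22, adjusted p = 0.177 from limma) and Nfkb1, an NF-kB subunit gene, at −0.49 (SE 0.22, adjusted p = 0.226 from limma). Neither of these 2 was called on the pileup. At the promoter of Tnfaip3, which encodes the NF-kB feedback inhibitor A20, fold enrichment changed by a log2 value of −0.38 (adjusted p = 0.335 from limma). The pileup there was called lower, with a log2 fold change of −1.15 (adjusted p = 0.0271 from limma).

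**Figure D4:**
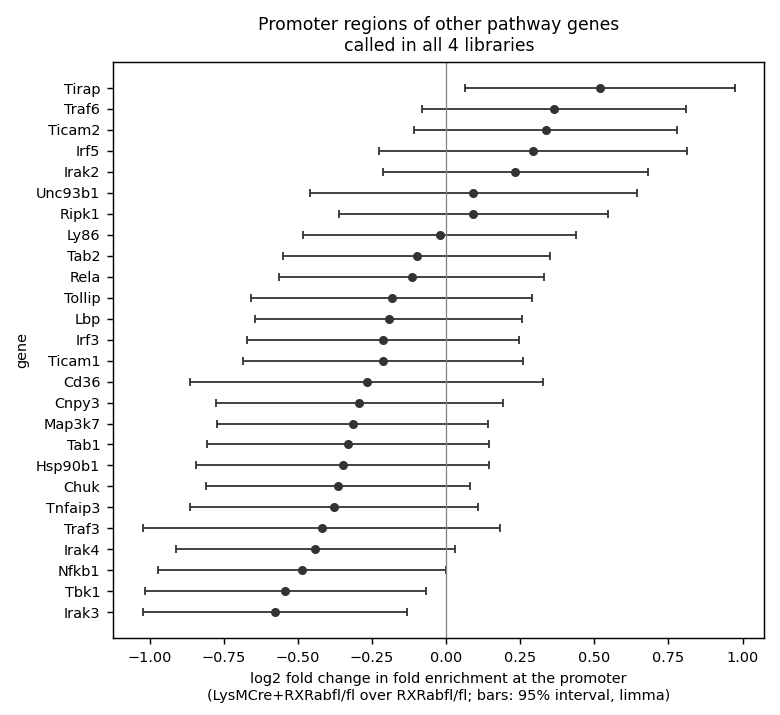
Log2 fold change in fold enrichment (x axis, LysMCre+RXRabfl/fl over RXRabfl/fl) at the promoter regions of the 26 further pathway genes called in all 4 libraries (y axis, ordered by the change), with 95% intervals from limma. The values run from −0.58 at Irak3 to 0.52 at Tirap, and none passed the threshold.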

How the data were processed

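Per the labels and the study's methods, the authors trimmed adaptors with cutadapt (version 1.7 in the submitters' processing notes), mapped them to mm10 (Bowtie2), filtered out duplicates, poorly mapped reads and those of mitochondria and sex chromosomes, ran MACS2 2.1.1 on every library (reads extended to 200 bp, q value 0.05) and dropped blacklisted peaks. The fold enrichment in the deposited lists is a ratio of the summit pileup to the local background. The deposited −log10 p and q values were used to solve the pileup and to apply a stricter q value, and the deposited integer score was not used. The authors' read-count test with edgeR was not repeated, because read counts were not analysed here.

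Peaks sharing at least 1 bp were merged and placed on 43783 RefSeq curated transcripts of 24963 genes (GRCm38.p6, the same build as mm10), with a promoter window from 1000 bp upstream to 200 bp downstream of a TSS. A whole-number pileup was solved for at least 99.997% of the peaks of each library, within 0.01 of the −log10 p. Regions called in all 4 libraries were tested on log2 fold enrichment, with the median of each library set to 0 and no pseudocount, by lmFit and eBayes of limma 3.58.1 (R 4.3.3), and the p values were adjusted over all 15199 regions. Both the fit and the pileup solver were tested on simulated data. Numbers of called regions were compared with an exact permutation test. The depth of a library was read only from its lowest background, since peaks carry no total, and no interval on shares of regions is given. The alternatives were the pileup, quantile normalisation, regions called in at least 3 libraries, a q value of 0.01, summits, calling by the adjusted p alone, a mean-variance trend, an equal number of peaks, the nearest TSS only, percentiles and each library left out. Python 3.11.15, numpy 2.4.6, scipy 1.17.1 and pandas 2.3.3 were used.

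The members, the pathway list and the marker lists were chosen with earlier results of these data known. The result of 1 marker list is not reported here. For each member, the rule names the promoter region (overlapping the promoter window), the strongest region, those past the limma threshold and those called in both libraries of 1 genotype and neither of the other. For the pathway it names genes with a region past the threshold, or otherwise the 3 highest and 3 lowest promoter changes. Regions named beyond this rule were chosen after their values were seen. Motifs were matched as consensus letters within 100 bp of the strongest summit, which is not a matrix search.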

Additional observations from a re-analysis of the deposited data

How the results depend on the processing

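Of the 15 single regions, the sign of the change turned in 9 of 149 comparisons with an alternative. The Cd14 region 6.64 kb downstream went to −0.32 on the pileup, −0.0008 with peaks reduced to summits and between −0.21 and 0.050 with a library left out. The Tlr2 region 1.96 kb downstream went to −0.040 without RXRabfl/fl replicate 3 (up to 0.28 without another), that 43.6 kb upstream to 0.038 with quantile normalisation and to 0.95 percentile points as a percentile, and the Tlr6 region to 0.11 without LysMCre+RXRabfl/fl replicate 1 (down to −0.28 without another). Over all regions, 6 higher and 7 lower became 61 and 76 with a mean-variance trend, 379 and 757 on the pileup, 9 and 2 with quantile normalisation, 15 and 8 over regions called in at least 3 libraries, 2719 and 124 over the same regions centred on those called in 4 (an alternative added after seeing the data), and 3 to 735 and 9 to 540 with a library left out. Among the members' regions, 0 higher became 2 in that added alternative and 0 to 1 with a library left out, and 0 lower became 1 on the pileup and 0 to 2 with a library left out, the 2 being the Tlr2 and Ly96 promoters without RXRabfl/fl replicate 1. Regions called only in LysMCre+RXRabfl/fl went from 13 to 2 with an equal number of peaks and to 13 to 33 with a library left out, and those called only in RXRabfl/fl from 0 to 1 with summits and to 3 with an equal number of peaks. Over the genome the share of the first pattern moved too, from 22.8% to 7.82% and to 22.9 to 49.2%. That of the second went from 0.0452% to 0.329% with summits and to 7.22% with an equal number of peaks. With an equal number of peaks the libraries called 15, 15, 14 and 16 members' regions. Leaving out a library also changed the set of regions on which the others were centred. The cause of these changes was not tested. The median change of the members' regions moved by less than the spread between libraries (SD 0.27) in its alternatives, except the added one, where it was 0.24 over the 35 regions called in at least 3 libraries and the median of all regions was 0.20. No paired analysis was possible because the 2 genotypes share only replicate number 1 in the labels. Depth limits the weakest calls, which rest on as few as 8 tags at a summit.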
